A study of Mus musculus with 4 samples.

Results

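The 3' untranslated regions (3' UTRs) of protein-coding transcripts carried the largest share of the N6-methyladenosine (m6A) peaks that were assigned to such transcripts in mouse embryonic stem cells. Members were chosen as listed peaks with the class 3' UTR and the biotype protein coding on chromosomes 1 to 19, X, Y or the mitochondrial genome. They numbered 4498 in wild type 1, 4287 in wild type 2, 4898 in knockout 1 and 4126 in knockout 2, or 17809 peaks in all. Peaks whose exon blocks overlapped by at least 1 bp were joined across libraries into 6164 regions, of 15487 regions made in the same way from peaks of every class. The members named 4818 of the 9949 genes with any peak (48.4%).

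The series compared m6A maps of C57BL/6N embryonic stem cells that were wild type (2 libraries) or Mettl5-/- (2 libraries). In both groups total RNA was fragmented and precipitated with the same anti-m6A antibody before sequencing (MeRIP-seq). The deposited peak lists, 1 for each library, were analysed. Both groups carry the same text on seeding in culture dishes, and a shared treatment text also describes embryoid bodies without LIF and neural differentiation, whereas all 4 libraries are labelled as embryonic stem cells. The labels do not give separate cultures for libraries of the same genotype, nor whether the knockout was 1 clone, so p-values here measure the spread between libraries, which may be technical. Peak lists hold no RNA level, so the labelled cell type and genotype could not be checked from them.

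Most m6A of messenger RNA is placed by a nuclear complex around Mettl3 and Mettl14 and is known to lie near stop codons and in 3' UTRs. There it is read by YTH-domain proteins, which can shorten the life of the transcript, and it shares the 3' UTR with binding sites of microRNAs and decay factors. Mettl5 is a different methyltransferase, known for an m6A in a ribosomal RNA of the small subunit, and is not a part of the messenger RNA complex. The comparison addressed whether the m6A profile differed without Mettl5.

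The mark is known to be placed within a short consensus, of which GGACT (with U for T in RNA) is a common form. Reference bases were at hand for promoter windows of 300 bases alone (250 before to 50 after RefSeq gene starts, GRCm38.p6), so the letters could be read where a 3' UTR peak ran into such a window. This was so over at least 50 bp for 53 of the 6164 regions, 9779 bp in all. The sites below are the GGACT matches on the strand of the peak that were covered by a 3' UTR peak in all 4 libraries; each is 21 bases, 5′ to 3′, with GGACT in capitals. They lay in the 3' UTR peaks of Lmln (a zinc metallopeptidase) at chr16:33123742-33123762 on the plus strand, Slc25a44 (a mitochondrial carrier) at chr3:88410570-88410590 on the minus strand, Foxm1 (a transcription factor of the cell cycle) at chr6:128375361-128375381 on the plus strand and Cd276 (an immune checkpoint protein) at chr9:58526170-58526190 on the minus strand.
Lmln: ccacagtaGGACTgtgaagag
Slc25a44: ctagaaatGGACTcgaggaga
Foxm1: agcatcagGGACTgaggagcc
Cd276: tttccaatGGACTtaattccc

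The peaks over these sites had the authors' fold enrichment (a ratio to a background that the lists do not name) between 10.4 and 145 for Lmln, 5.98 and 26.4 for Slc25a44, 7.23 and 28 for Foxm1, and 15.7 and 36.1 for Cd276. Over the 53 stretches the 5 letters matched 15 times on the strand of the peak, or 1.53 per kb, in 14 regions (26.4%). On the other strand they matched 9 times, or 0.920 per kb, in 9 regions (17.0%). Across all 32817 windows the rate was 1.03 per kb of each strand. Of these windows of 300 bases, 45.5% held a match on either strand. That share is not comparable with the shares of the stretches, which were mostly shorter and were counted for each strand apart. A match is a description of the letters, and these stretches are the few 3' UTR peaks that run into a window around a gene start.

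The share of peaks in 3' UTRs differed between the genotypes by less than the spread between libraries. It was 38.5% in wild type 1, 38.3% in wild type 2, 38.6% in knockout 1 and 38.1% in knockout 2. The knockout libraries thus lay above and below both wild-type libraries. The means were 38.4% ± 0.130 and 38.3% ± 0.311 (SD, n = 2 each; two-sided exact permutation test, p = 1, where the smallest possible with 2 against 2 is 0.333). Wild-type lists held 4392.5 ± 149.2 and knockout lists 4512 ± 546 of the 3' UTR peaks (mean ± SD, n = 2 each). Read depth was not analysed here, so a peak missing from a list may have gone unlisted for lack of reads.

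Most 3' UTR peaks were short and lay in 1 exon. The median summed block length was 331 and 360 bp in the wild-type libraries and 330 and 355.5 bp in the knockout libraries, which overlapped. From 4.10% to 4.90% of each library's 3' UTR peaks were split over several exon blocks, against 18.5% to 20.7% of the coding-sequence peaks of protein-coding genes. The split share was 4.85% and 4.90% in wild type and 4.49% and 4.10% in the knockout. The groups did not overlap, at a mean difference of -0.579 percentage points (two-sided exact permutation test, p = 0.333, the smallest possible; 1 of 10 measures compared between the genotypes in this way, and the only one whose groups did not overlap).

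A small number of transcripts carried far longer peaks listed as 3' UTR. A peak has a single listed class, so a long peak may also cover coding sequence, which was not tested. The longest belonged to Ankrd11, a chromatin regulator, at 6447 to 6537 bp in all 4 libraries (chromosome 8, 122889777 to 122897028, mm10), with folds of 486 and 252 in wild type and 409 and 203 in the knockout. Peg10, a gene derived from a retrotransposon, had a single unbroken block of 3230 to 3319 bp in every library (chromosome 6, 4756482 to 4759829). Its folds were 406 and 298 in wild type and 382 and 394 in the knockout. Long peaks were not always called alike: in Zcchc14 and Lrrc58 the lengths within the region ranged from 420 to 3801 bp and from 450 to 3598 bp. The long region of Adnp, a transcription factor needed for neural development, also belonged to an overlapping predicted gene model, and knockout 1 listed nearly the same span for both (3826 and 3825 bp). The most split 3' UTR peaks were those of Map2k7, a kinase of the JNK pathway (up to 7 blocks), Dab2ip and Ints5 (up to 5 each), and Nol9 and Zfp809 (up to 4 each).

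The gene's 3' end was usually some distance away. Of the 17809 peaks, 97.4% had a symbol in the RefSeq table of GRCm38.p6, the assembly of mm10, and 16847 (94.6%) overlapped that gene. From the middle of the peak to the gene's 3' end the median was 1140 bp in wild type 1, 1136 bp in wild type 2, 1105 bp in knockout 1 and 1153 bp in knockout 2. The curves of the 4 libraries lay on each other. From 5.94% to 6.29% of the 3' UTR peaks came within 50 bp of the end, and 2.50% to 2.61% lay more than 10000 bp from it.

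**Figure D1:**
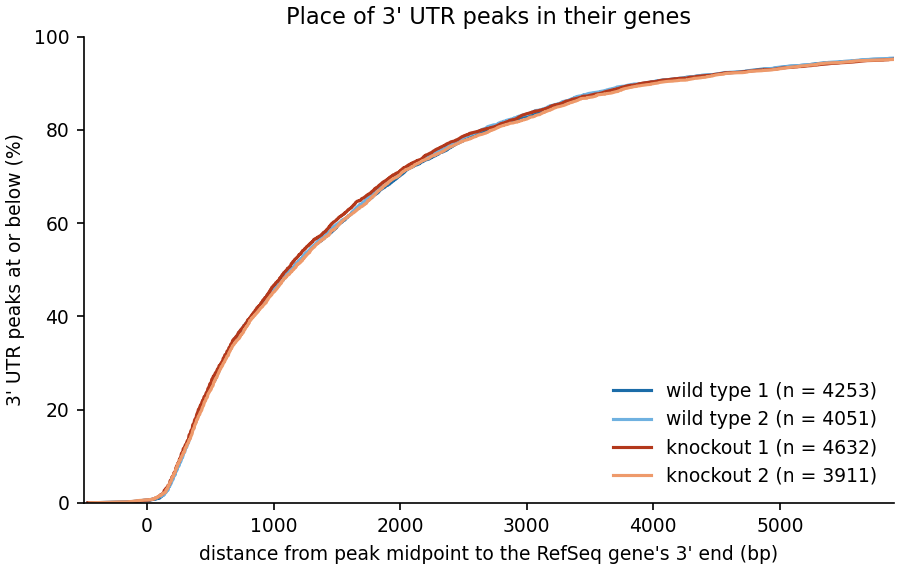
Cumulative share (%) of 3' UTR peaks by the distance in bp from the peak's midpoint to the 3' end of the RefSeq gene, 1 line per library. The 4 lines nearly coincide, with medians of 1105 to 1153 bp.

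In most genes the 3' UTR was the only place with a peak. Of the genes with a 3' UTR peak, 70.5%, 71.0%, 69.0% and 71.0% had no peak of another class (wild type 1 and 2, then knockout 1 and 2). A coding-sequence peak as well was found in 24.1%, 23.0%, 24.7% and 23.5%, in the same order. One region per gene was the rule, with 3669 of 4818 genes (76.2%), and 894 (18.6%) had 2. Tmem127, a membrane protein that restrains mTOR signalling, had the most, 6 regions within 127257432 to 127260898 of chromosome 2. Of its regions 3 were in all 4 libraries, with folds up to 138, and the other 3 had folds of 10.1 to 14.4 in 1 or 2 libraries. Another 10 genes had 5 regions each, among them the histone demethylase gene Kdm5b, Kremen1 (a receptor for WNT antagonists), Lpgat1 and Plpbp. In Kdm5b the strongest region (chromosome 1, 134631117 to 134631866) had folds of 260 and 385 in wild type and 673 and 163 in the knockout. Its other two shared regions had folds of 13.9 to 115, and its regions of a single library 8.81 and 13.4.

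A common set of 3' UTR regions was found in every library. Of the 6164 regions, 2619 (42.5%) had a 3' UTR peak in all 4 libraries, the same share as over regions of all peaks (42.5%), and 34.2% of 6094 coding-sequence regions did. A further 902 (14.6%) were in 3 libraries, 645 (10.5%) in 1 wild-type and 1 knockout library, and 1736 (28.2%) in a single library. At the level of genes, 2417 of 4818 (50.2%) had a 3' UTR peak in every library, which is 24.3% of all genes with a peak.

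The strongest of these shared regions belonged to genes of varied function. Strength is the percentile of a peak's p-value within its library's full list, 100 being the strongest. Purb, a nucleic acid-binding protein, led with a mean percentile of 99.3 and folds of 1350 and 208 in wild type and 933 and 266 in the knockout (chromosome 11, 6473254 to 6475827). Each genotype had a library with a high and a library with a low fold, so the genotypes overlapped. Slirp, an RNA-binding protein of mitochondria, had folds of 248 and 148 in wild type and 362 and 254 in the knockout. Tardbp (TDP-43, an RNA-binding protein that controls splicing) had 159 and 165 against 258 and 107. Emsy, a chromatin-associated partner of BRCA2, had 623 and 646 against 1170 and 580. Slc2a1, the glucose transporter GLUT1, had 313 and 195 against 447 and 123. The genotypes overlapped in 4 of these 5 regions; for Slirp the lowest knockout fold lay just above the highest wild-type fold, and folds are not comparable as levels between lists. The other strongest regions were those of Ankrd11, F11r (a tight junction protein), Ttc14, Phrf1 and 2610507B11Rik, with folds between 203 and 700. Of these, Ttc14 had 429 and 480 in wild type against 416 and 365 in the knockout. For 2610507B11Rik the folds were 358 and 278 against 403 and 473. Neither region overlapped between the genotypes, in opposite directions, whereas Ankrd11, F11r and Phrf1 did. How often folds separated the genotypes over all shared regions was not counted. Overlap or separation of folds is therefore not read as a result, here or for the genes named below.

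**Figure D2:**
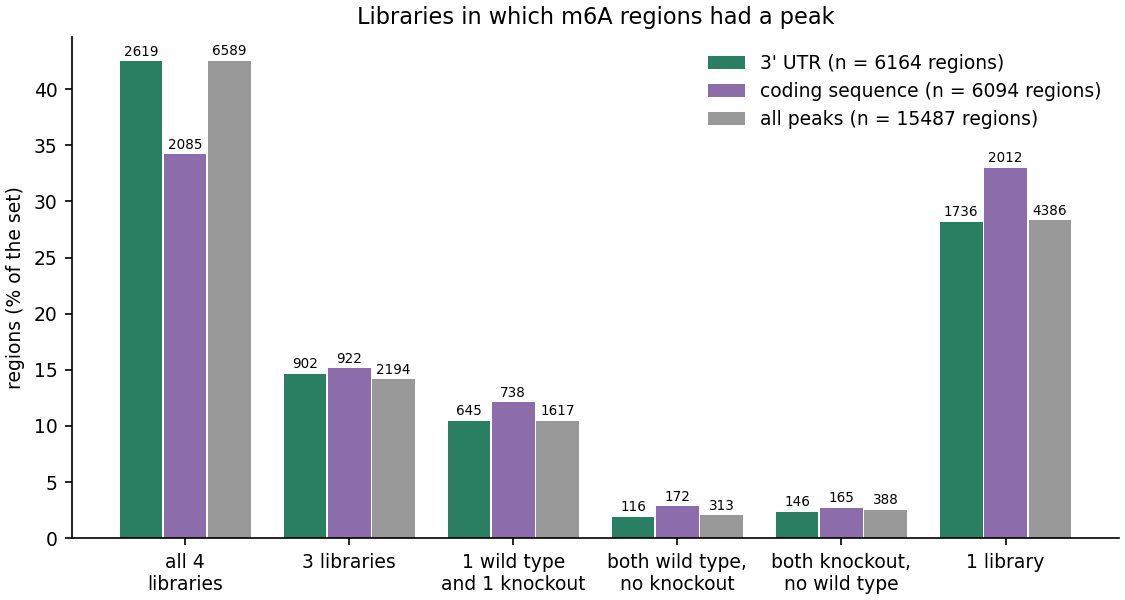
Share of regions (% of the set) by the libraries in which they had a peak, for 3' UTR, coding-sequence and all regions, with the number of regions above each bar. Shared regions were 42.5% of the 3' UTR set, and regions of both libraries of a single genotype 1.88% and 2.37%.

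Strong 3' UTR peaks recurred more often than weak ones. With each list cut into 10 equal steps of strength, of the peaks in the weakest step 18.8% in wild type 1, 23.7% in wild type 2, 8.03% in knockout 1 and 38.0% in knockout 2 lay in a region shared by all 4 libraries. In the seventh step the share was 83.8%, 85.5%, 88.4% and 78.3%, and in the strongest 79.3%, 78.5%, 88.9% and 74.7%. In the strongest step the share was below that of the seventh in wild type 1, wild type 2 and knockout 2. Knockout 1, the longest list, had the lowest share among weak peaks and the highest among strong ones. It also held 76 of the 3' UTR peaks whose adjusted p-value was not under 0.05, and the other libraries 5, 6 and 8. The median percentile was 59.9 in regions of all libraries, 33.5 in regions of 3 libraries and 16.8 in regions of 1, and the median length fell in the same order, 420, 269 and 180 bp.

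**Figure D3:**
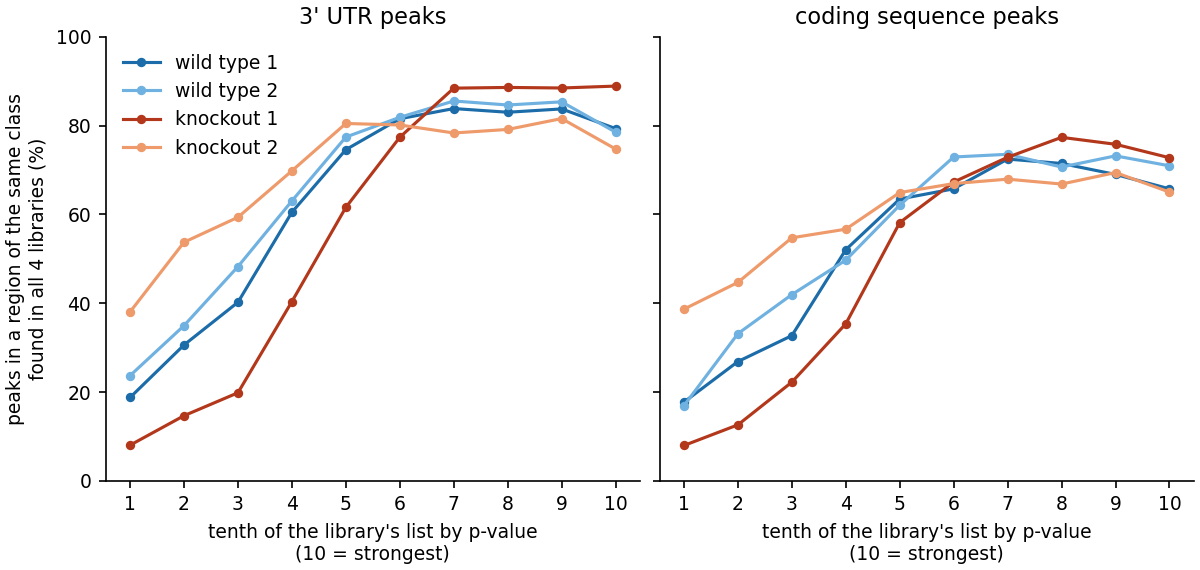
Share (%) of the peaks in each of 10 steps of a library's list by p-value (10 is the strongest) that lie in a region of the same class found in all 4 libraries, for 3' UTR peaks on the left and coding-sequence peaks on the right. Each line is a library: 3' UTR peaks reach 78.3% to 88.4% in the seventh step.

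Compared with coding-sequence peaks of protein-coding genes in the same library, 3' UTR peaks were shorter, of lower rank and more often met again. The overlap with any peak of the other library of the genotype was 79.9%, 83.7%, 69.2% and 86.7% for 3' UTR peaks and 76.9%, 79.6%, 68.0% and 77.1% for coding-sequence peaks, in the order wild type 1, wild type 2, knockout 1 and knockout 2. The difference was 4.51 ± 3.65 percentage points (SD, n = 4 libraries; 1.18 to 9.67) and was above 0 in 4 of 4 libraries. The median strength percentile differed by -7.93 ± 0.724 (SD, n = 4) and the median length by -89.4 ± 20.2 bp (SD, n = 4), both lower in 4 of 4. Each of these 3 comparisons gave p = 0.13 in a two-sided exact sign-flip permutation test, the smallest that 4 libraries allow, and the same value after Benjamini-Hochberg adjustment over the 3. The rank and length differences were much smaller among peaks of 1 exon block, -1.84 percentile points and -37 bp.

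Few 3' UTR regions followed the genotype. In 116 regions (1.88%) both wild-type libraries had a 3' UTR peak and no knockout library did, where 2.02% of all regions showed that pattern. The reverse held for 146 regions (2.37%), against 2.51% of all regions. Both shares were near those of all peaks. They were 2.82% and 2.71% among coding-sequence regions. Leaving out a library removes a requirement of the pattern, so higher counts follow largely in advance. The wild-type-only count was 423 or 525 when wild type 1 or 2 was left out. It was 447 or 302 when knockout 1 or 2 was left out. The knockout-only count was 348, 341, 462 and 895 in the same cases. By gene, 87 of 4818 (1.81%) had a 3' UTR peak in wild type only and 122 (2.53%) in the knockout only, and over peaks of any class these shares were 1.56% and 2.27% of genes.

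Most of these regions were weak. The median percentile was 28.7 in wild-type-only and 20.7 in knockout-only regions, close to the 23.7 of regions with 1 library of each genotype. The strongest 10% of the list held 4.58% and 2.36% of their peaks, against 8.54% of the peaks in regions of all libraries. The sharing of regions did not follow the genotype either. The wild-type libraries had a Jaccard index (regions of both over regions of either) of 0.652 and the knockout libraries of 0.590, and the mixed pairs had 0.619, 0.631, 0.620 and 0.650. The mean within genotypes minus the mean across was -0.00901, and the 6 indices had an SD of 0.0232. The sign of that difference changed without a knockout library (0.00994 without knockout 1, 0.0324 without knockout 2).

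Several of the strongest regions listed in 1 genotype had a peak at the same place in the other, listed under another class. Of the 116 wild-type-only regions, 80 (69.0%) had no peak of any class in either knockout library, 14 had one in 1 and 22 in both. Of the 146 knockout-only regions, 124 (84.9%) had none, 8 had one in 1 and 14 in both wild-type libraries. Those with a peak of another class were the stronger ones, with a median percentile of 48.9 against 22.2 in wild type and 43.9 against 19.1 in the knockout. Of the 14 wild-type-only regions with a mean percentile over 80, 7 had no peak of any class in the knockout, and of 7 such knockout-only regions 4 had none in wild type.

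Hes1, a repressor that is a target of Notch signalling, showed this over a single short region (chromosome 16, 30067167 to 30067706). Its peak was listed as 3' UTR in knockout 1 (fold 113) and knockout 2 (fold 174) and as coding sequence in wild type 1 (fold 401) and wild type 2 (fold 233). The spans nearly coincided, from 30067137 to 30067706 in both wild-type libraries, and the midpoints were 30067436 and 30067451 in the knockout against 30067421 in both wild-type libraries. Id1, an inhibitor of basic helix-loop-helix factors, changed class as well, but its wild-type peaks began further upstream. They began at 152736251 of chromosome 2, against 152736429 and 152736548 in the knockout. Its 3' UTR peaks had folds of 134 and 52.4 in the knockout, and its coding-sequence peaks 62.1 and 39.2 in wild type. Sox1, a transcription factor of neural progenitors, had 3' UTR peaks of 955 and 836 bp in the knockout (folds 302 and 285) and coding-sequence peaks of 1552 and 1612 bp in wild type (folds 414 and 1170). All ended at 12398039 or 12398068 of chromosome 8, and the wild-type peaks began further upstream, at 12396488 and 12396428 against 12397114 and 12397233.

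The reverse change of class occurred too. Nit1, an amidase, had 3' UTR peaks in wild type (folds 312 and 562) and coding-sequence peaks over 2 exon blocks in the knockout (399 and 98.7). Zfp180, a zinc finger protein gene, had 3' UTR peaks of 721 and 691 bp in wild type (folds 418 and 461) and coding-sequence peaks of 1230 bp in both knockout libraries (359 and 407). Ermp1, a metallopeptidase of the endoplasmic reticulum, had 3' UTR peaks in wild type (526 and 377) and coding-sequence peaks in the knockout (211 and 323). Pgpep1, a pyroglutamyl peptidase, had 3' UTR peaks in the knockout (281 and 202) and peaks in exons of no finer class in wild type (351 and 385). Cc2d1b differed from these genes: the peaks that met its wild-type 3' UTR peaks (215 and 136) in the knockout (111 and 217) lay on the opposite strand and belonged to the predicted gene Gm17354. Across the 10 strongest named regions of each genotype, 12 of 20 followed the genotype when a peak of any class counted as presence.

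**Figure D4:**
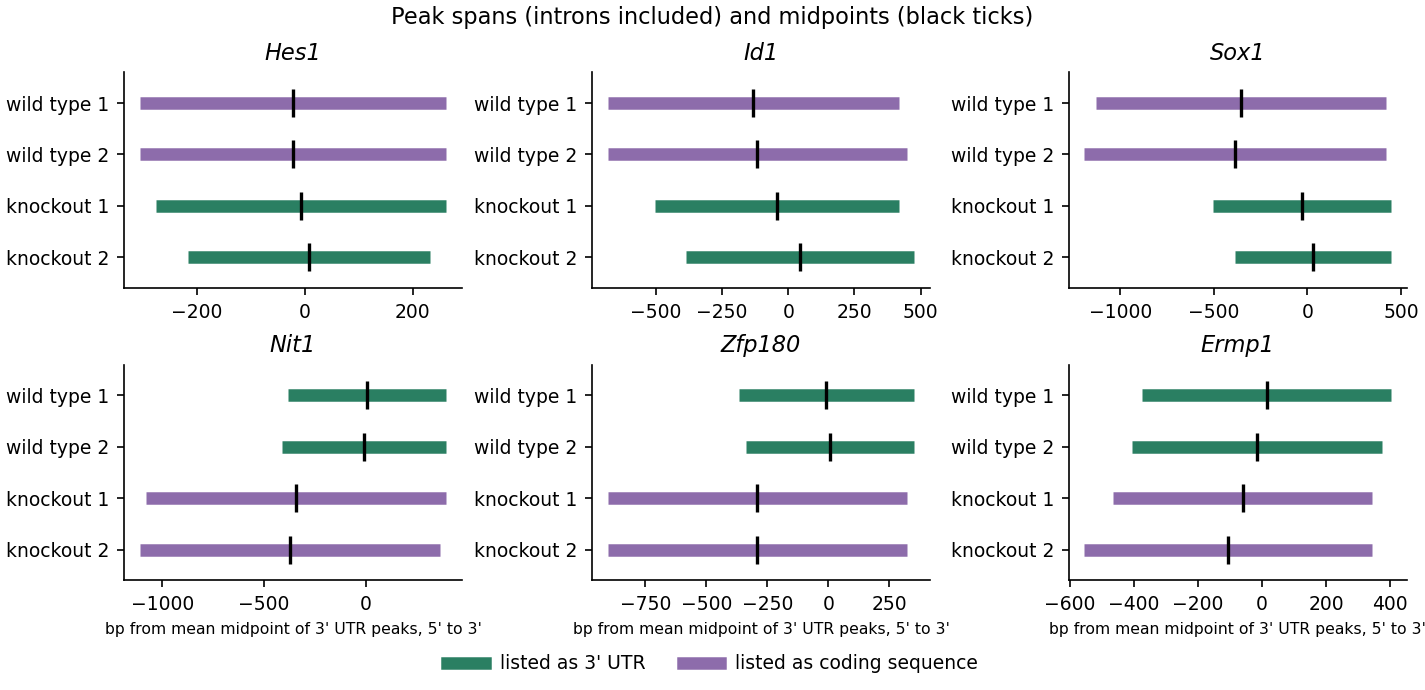
Genomic spans of the peaks of 6 genes (introns included) in each library, in bp from the mean midpoint of the 3' UTR peaks and drawn 5' to 3', with a black tick at each midpoint; green is listed as 3' UTR and purple as coding sequence. In each gene the spans of all 4 libraries overlap, and the coding-sequence midpoints lie 5' of the 3' UTR midpoints.

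Changes of class were also described across the whole set. The position listed for a peak was the midpoint of its span in every peak of the 4 lists, and 99.6% of the 3' UTR midpoints in each library fell within an exon block of the peak. Of the 3' UTR peaks that overlapped a peak of another library, 94.0% to 96.3% met a 3' UTR peak there, 2.63% to 4.55% a coding-sequence peak and 0.889% to 1.58% a peak of another class. The midpoints differed by a median of 30 bp between 3' UTR peaks and of 150 bp when the other was listed as coding sequence (1561 pairs). In 1431 of those pairs with the same gene and strand, the coding-sequence midpoint was the one further 5' in 1420 (99.2%). It was so in 818 of 829 (98.7%) when both peaks had 1 exon block. Coding sequence lies 5' of the 3' UTR in a transcript, so any class set by position gives this order largely in advance. No conclusion is drawn from it, and a region could enter several pairs. The sources used here do not state how the class was assigned.

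Other genotype-only 3' UTR regions had no peak of any class at that place in the other genotype. In wild type they included Ctnnd1, a catenin that binds cadherins, at 84602020 to 84603742 of chromosome 2 with folds of 471 and 181. Mtrr, methionine synthase reductase, had identical spans of 419 bp in both wild-type libraries (chromosome 13, 68562005 to 68562423, folds 100 and 126), and none of its peaks was listed in the knockout. The same absence of any peak of the gene was seen for Tspan14, a tetraspanin (516 and 88.9), and Zc3h7a (48.8 and 44). Others had a knockout peak close by. For Gemin5, a component of the SMN complex (656 and 241), 3' UTR peaks lay 118 and 148 bp away in the knockout libraries, with folds of 78.5 and 31.4. For Myo10, a myosin of filopodia (59.7 and 71.9), knockout 2 had a 3' UTR peak 329 bp away with a fold of 110.

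Knockout-only regions were led by Rsbn1l, at 20895935 to 20896893 of chromosome 5 with folds of 566 and 373. The nearest Rsbn1l peaks of the wild-type libraries lay in the coding sequence, 22683 and 22653 bp away. Zfp655, a zinc finger protein gene, had 3' UTR peaks of 1767 and 959 bp (folds 485 and 169) and no listed peak in wild type. Hcfc1, a transcriptional coregulator, had identical spans in both knockout libraries (chromosome X, 73943871 to 73944698, folds 126 and 83.9), and its nearest wild-type peaks were coding-sequence peaks 4316 and 3534 bp away. Zfp383 had folds of 261 and 311. Bfar, a regulator of apoptosis (104 and 63.5), and Gosr2, a SNARE of the Golgi (42.3 and 52.3), had 3' UTR peaks in both wild-type libraries elsewhere, 328 bp and 1287 to 1317 bp away. Absence from a list is not a measurement of no methylation, and no test was run on a single region.

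**Figure D5:**
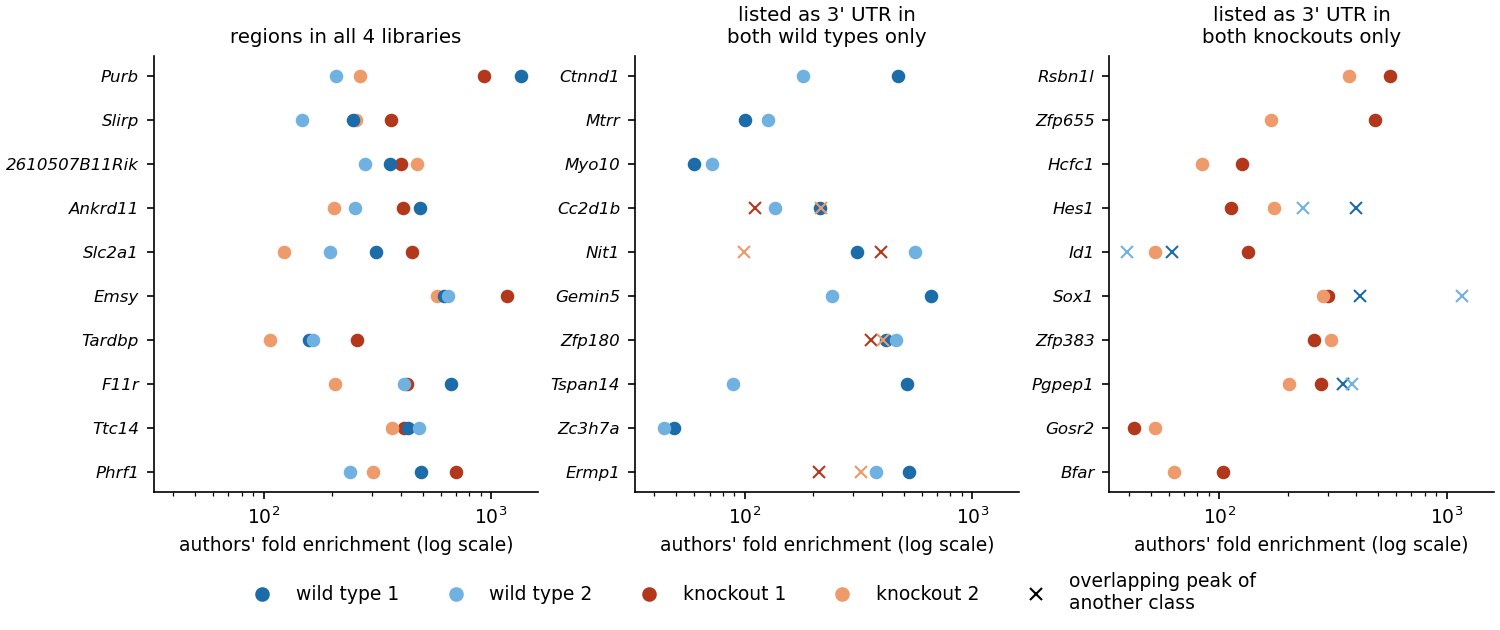
The authors' fold enrichment (log scale) of the 10 strongest 3' UTR regions found in all 4 libraries, in both wild-type libraries only and in both knockout libraries only, 1 point per peak and library; crosses are overlapping peaks of another class, for Cc2d1b on the opposite strand. Crosses appear in the other genotype for Cc2d1b, Nit1, Zfp180, Ermp1, Hes1, Id1, Sox1 and Pgpep1.

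Strong peaks could also differ between libraries of 1 genotype. Nol9, a kinase that processes ribosomal RNA, had a 3' UTR peak of 2150 bp in wild type 1 alone, with a fold of 1270. In Mdm2, the ubiquitin ligase that targets p53, wild type 2 and knockout 1 listed the same span of 1885 bp with folds of 361 and 1960. Wild type 1 and knockout 2 listed only one end of it (480 and 360 bp, folds 13.4 and 11.6), beside a further knockout 2 peak of 151 bp. Notch2, a receptor, had a longest peak of 2966, 2546 and 2876 bp in wild type 1, wild type 2 and knockout 1 and of 1139 bp in knockout 2. These differences crossed the genotypes or set 1 library apart.

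Genes of the pathways around m6A and the 3' UTR often had a 3' UTR peak in both genotypes, as genes did in general. Of all genes with a 3' UTR peak, 50.2% had one in all 4 libraries. List members were counted with a 3' UTR peak out of those with any peak, where 48.4% of all genes had one. Factors that bind 3' UTRs or act in messenger RNA decay had 31 of 41, with 19 in all 4 libraries and a median best percentile of 59.2, where the median of all genes was 45.3. Nonsense-mediated decay genes were among them. Upf2 had folds of 333 and 215 in wild type and 310 and 205 in the knockout, and Upf1 221 and 126 against 169 and 128. The Upf1 region also held 3' UTR peaks listed for Cers1 and Gdf1, and folds within it ranged from 9.71 to 221. Zfp36l2, which brings AU-rich transcripts to decay, had 556 and 616 against 1720 and 219. For Upf2, Upf1 and Zfp36l2 the genotypes overlapped. Cnot6, a deadenylase subunit, had a 3' UTR peak in each knockout library and in no wild-type library, but at different places (folds 11.2 and 5.23).

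Of 16 m6A writers, erasers and readers with a peak, 5 had one in the 3' UTR, and 4 had it in all libraries. These were the writer complex members Mettl14 (folds 10.8 to 22.2 in its shared region) and Wtap (5.62 to 18.1), the ribosomal RNA methyltransferase Zcchc4 (40.9 to 110) and the cap-adjacent methyltransferase Pcif1 (43.3 to 179, in a region that overlaps the 3' UTR of Zfp335). None of the 5 was wild-type-only or knockout-only as a gene. With 1.81% and 2.53% of all genes with a 3' UTR peak in those classes, 5 genes are too few to read anything from that. Mettl5 itself had no peak of any class in the 4 lists. Cleavage and polyadenylation factors had 4 of 14, and Cpsf2, a subunit that acts in 3' end cleavage, had a region in all libraries (folds 186 and 64.4 in wild type, 82.5 and 23.2 in the knockout).

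The pluripotency list had 15 of 23 genes with a 3' UTR peak, 8 of them in all libraries. Tdgf1, a coreceptor of Nodal, had the same span of 835 bp in every library (chromosome 9, 110939633 to 110940467), with folds of 91.4 and 45.5 in wild type and 104 and 62.3 in the knockout. Fgf4, the growth factor that stem cells secrete, had a strong region (409 and 998 against 694 and 203) and a weaker one (5.61 and 6.88 against 16.6 and 11.9). Esrrb, a nuclear receptor of the pluripotency network, had a region at 86520461 to 86521628 of chromosome 12 (32.1 and 17.7 against 32.6 and 15.8). The genotypes overlapped in these regions other than the weaker one of Fgf4, where both knockout folds were higher. Folds are not comparable as levels between lists, so that order is not read as a difference of genotype. Lin28a, which blocks let-7 maturation, had 2 shared regions with folds of 10 to 51.1 and 4.84 to 13.1. Lefty2, an inhibitor of Nodal, was knockout-only (7.05 and 2.49). Sox2, Klf4, Pou5f1 and Myc had peaks of other classes only, and Nanog had none.

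The list of FGF, WNT and TGF-beta signalling had 23 of 33, with 11 in all libraries and a median best percentile of 30.6. Ctnnb1 (beta-catenin) had folds of 256 and 70.7 in wild type and 149 and 69.3 in the knockout, Acvr2b (an activin receptor) 429 and 487 against 329 and 163, and Dusp4 (a phosphatase of MAP kinases) 260 and 128 against 207 and 122. Both Acvr2b folds were higher in wild type, and Ctnnb1 and Dusp4 overlapped. Since folds are not comparable as levels between lists, the Acvr2b values are not read as a difference of genotype. The knockout-only member was Id1, described above. Fbxw7 with the partners and targets of its ligase had 11 of 16, and 6 in all libraries. Fbxw7, the substrate receptor of a ubiquitin ligase, had a modest one at 84978449 to 84978958 of chromosome 3 (11.6 and 14.8 against 12.5 and 16.4). The knockout-only member was Mtor, a growth kinase, with identical spans of 871 bp over 2 exon blocks in both knockout libraries (chromosome 4, 148556311 to 148557653, folds 234 and 100) and no peak of another class there in wild type.

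Cell cycle regulators had 19 of 30, of which 12 were in all libraries, including Ccnd2 (a D-type cyclin, folds 169 and 272 against 648 and 143) and Plk2 (a polo-like kinase, 341 and 204 against 757 and 373). Ccnd2 overlapped between the genotypes, and both Plk2 folds were higher in the knockout. The Plk2 order is likewise not read as a difference of genotype, because folds are not comparable as levels between lists. Genes of the integrated stress response had 10 of 16, with 4 in all libraries and the highest median best percentile of the lists, 68.8. In Eif2ak2 (PKR, a kinase of an initiation factor) the longest peak was 1346 and 1317 bp in wild type (folds 440 and 646). In the knockout it was 2154 and 1705 bp (2290 and 411). Peaks within this region ranged from 300 to 2154 bp. How often lengths separated the genotypes over all regions was not counted, so this order is not read as a difference of genotype. Xbp1, a transcription factor of the unfolded protein response, had 127 and 67.2 against 145 and 107. Chromatin regulators had 21 of 34 with 7 in all libraries, among them Kdm5b and the methyltransferase genes Ehmt1 (folds 109 to 325) and Kmt2a. No member of these 3 lists was wild-type-only or knockout-only as a gene. With 1.81% and 2.53% of all genes with a 3' UTR peak in those classes, lists of this size are too small to read anything from that.

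Markers of cells other than stem cells carried 3' UTR peaks as well. Neural markers had 6 of 10, with Ncam1 in all libraries (folds 7.03 to 38.3) and Hes1 and Sox1 as the change of class described above. Mesoderm and endoderm markers had 6 of 7, with Eomes (211 to 258), Isl1 (18.8 to 76.9) and Kdr (12.6 to 14.4) in all libraries. Feeder fibroblast markers had 5 of 7, with Pdgfrb (217 to 337 in its stronger region) in all libraries, and primitive endoderm and trophoblast markers 7 of 8, with Ets2, Sox7 and Pdgfra in all libraries and Col4a1 knockout-only at weak folds (8.81 and 4.48). These lists lacked any peak for 9 of 19, 11 of 18, 11 of 18 and 10 of 18 genes. Whether such transcripts came from other cells was not tested.

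Some assignments to a gene were uncertain. From 4.39% to 4.87% of each library's 3' UTR peaks met a peak of the opposite strand in their own list. Another peak on the same strand was met by 2.94% to 3.29%, and how often it was listed for another gene was not counted. No source used here says that the libraries kept the strand.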

How the data were processed

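Each of the 4 MeRIP libraries (2 wild type, 2 Mettl5-/-, grouped by the labelled genotype) came with 1 list of peaks, so peaks were called per library. HISAT2, HOMER and mm10 are named in the submitters' processing notes; which peak caller, settings and input were used is not given in the sources used here. Per the file headers, the authors gave each peak a p-value, scores that hold the log10 of the p-value and of an adjusted p-value, a fold enrichment (a ratio) and a count of exon blocks. Folds and p-values are the authors' own and were used to describe or rank peaks within a list. In each library 22 to 33 of the 3' UTR peaks had no finite log10 p-value and tied at the top. Lists held 11699, 11206, 12705 and 10824 peaks, of which 11696, 11201, 12699 and 10821 on the reference chromosomes were used. Read depth is unknown here, so no interval on a peak is given.

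A region was present in a library when a member peak of that library lay in it. Members, gene lists and comparisons were chosen with earlier results of these data known. Named were Mettl5, Fbxw7 and 6 pluripotency or growth factors; the 10 regions of highest mean percentile in each of 3 presence classes (predicted genes left out of the genotype-only ones); the 5 genes with most regions; the 5 longest and the 5 most split regions; and up to 4 members of each gene list in each presence class, of which 1 is not reported here. Nol9, Mdm2 and Notch2 as examples of differing libraries, and the regions shown as changes of class, were singled out after their values were seen. Genotypes were compared by exact permutation over libraries and classes by exact sign-flips. Joining was tested on simulated lists. Sequences came from RefSeq windows of GRCm38.p6. Python 3.11.15, numpy 2.4.6, pandas 2.3.3, scipy 1.17.1 and matplotlib 3.10.9 were used. Alternatives were a 50% overlap, the same strand, the stronger 50% of peaks, equal list lengths, peaks of any class, genes in place of regions, base pairs in place of peaks, peaks of 1 exon block, ranks by fold and leaving out each library; an adjusted p-value under 0.05 was added after seeing the data.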

Additional observations from a re-analysis of the deposited data

How the results depend on the processing

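The mean recurrence, rank and length differences from coding-sequence peaks kept their direction under every alternative run for them. In the stronger 50% of each list the mean recurrence difference was 4.25 percentage points (two-sided exact sign-flip permutation test, p = 0.25). There it was not above 0 in every library. The knockout minus wild-type difference in 3' UTR share was -0.236 to 0.204 percentage points with a library left out, and 0.210 by base pairs, within the spread between libraries. For the counts of regions, a 50% overlap, the same strand and an adjusted p-value under 0.05 moved none by more than 1.5 times. The stronger 50% of the 3' UTR peaks left 69 wild-type-only and 76 knockout-only regions, with 47.1% of regions in all libraries. That share was 45.8% with lists of equal length, 48.5% with peaks of any class as presence and 50.2% for genes in place of regions. With 1 library left out there were 302 to 525 wild-type-only and 341 to 895 knockout-only regions, 47.7% to 50.9% of regions in all libraries and a Jaccard difference of -0.0448 to 0.0324; at equal length that difference was 0.00125. With 1 library of a genotype left, presence or absence in both became presence or absence in 1. Higher counts and shares then follow largely in advance. For the other changes the cause was not tested. No paired analysis was possible because the wild-type titles have no replicate number and nothing was fitted. Neither depth nor RNA level was analysed here, so an unlisted peak cannot be told apart from a missed one.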
